A study of Mus musculus with 30 samples.

Results

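The genes described here encode the 2 cytoplasmic actins of the brain and 5 small or abundant proteins that bind actin: Actb, Actg1, Cotl1, Cfl1, Pfn1, Tmsb4x and Tmsb10. They were measured on Affymetrix MG-U74Av2 arrays, single-colour oligonucleotide arrays, in total RNA from mouse hippocampus. Every non-control probe set annotated with 1 gene symbol, that symbol being one of the 7, was taken. This gave 7 of the 8251 genes named on the array and 8 of its 12488 probe sets: 2 for Actb and 1 for each of the other 6 genes. The group of genes was selected on values of the same arrays, because Cotl1 and Actb had lower levels at P18 than at P15 in pools from heterozygotes. That step is therefore given as a description, with no test.

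Each of the 30 samples was total RNA from the pooled hippocampi of 2 male pups of 1 genotype. Per the labels, one parent was C57BL/6 and the other Nf1 heterozygous, and the pups were either wild type or Nf1 heterozygous, at the ages P10, P15, P18, P20, P28 or P32 (days after birth). Nf1 encodes neurofibromin, which turns Ras off; the labels do not describe the altered allele, and they name no agent or transgene. Wild type held 3, 4, 2, 2, 2 and 2 pools in the order of age and heterozygotes held 4, 4, 2, 2, 2 and 1. The labels do not say whether the pools came from separate litters, and the p-values cover no more than the spread among the pools as deposited.

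Actin exists in cells as single molecules (monomers) and as filaments built from them. Beta-actin (Actb) and gamma-actin (Actg1) differ by a few residues and together form the cytoplasmic filaments of growth cones, dendritic spines and presynaptic endings. Thymosin beta 4 (Tmsb4x) and thymosin beta 10 (Tmsb10) hold monomers in reserve, profilin 1 (Pfn1) delivers monomers to growing filament ends, cofilin 1 (Cfl1) severs and disassembles filaments, and coactosin-like protein (Cotl1) binds filaments. Genes of this system are known targets of serum response factor, which binds the CArG box, and whose coactivators sense the pool of actin monomers.

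The genes lie apart in the mouse genome (GRCm38.p6): Actb at chr5:142903115-142907976, Actg1 at chr11:120345687-120348495, Pfn1 at chr11:70651844-70656799, Cfl1 at chr19:5490455-5494031, Cotl1 at chr8:119809214-119840579, Tmsb4x at chrX:167207093-167213479 and Tmsb10 at chr6:72957347-72958748. These are the spans of the genes, and the positions of the probes within them were not used here. RefSeq promoter windows matched 5 of the 7 genes. Actb and Cotl1 had no window, so their promoters were not searched. Actg1 and Tmsb10 are printed as a contrast in what the arrays showed with age: both probe sets are bright, one of them level and the other falling in both age comparisons. Each run is the 250 bases before the outermost annotated start, on the minus strand, 5′ to 3′, from RefSeq, build GRCm38.p6, at chr11:120348496-120348745 for Actg1 and chr6:72958749-72958998 for Tmsb10. Capitals mark matches on either strand to the CArG box, to GGGCGG (the core of a GC box, written CCGCCC where it lies on the other strand) and to CCAAT.
Actg1: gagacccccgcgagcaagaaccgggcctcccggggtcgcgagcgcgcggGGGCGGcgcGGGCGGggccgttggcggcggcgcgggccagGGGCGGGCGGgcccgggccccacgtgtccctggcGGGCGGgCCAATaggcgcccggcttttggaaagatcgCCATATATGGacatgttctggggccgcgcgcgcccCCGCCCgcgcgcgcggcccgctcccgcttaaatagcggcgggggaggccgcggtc
Tmsb10: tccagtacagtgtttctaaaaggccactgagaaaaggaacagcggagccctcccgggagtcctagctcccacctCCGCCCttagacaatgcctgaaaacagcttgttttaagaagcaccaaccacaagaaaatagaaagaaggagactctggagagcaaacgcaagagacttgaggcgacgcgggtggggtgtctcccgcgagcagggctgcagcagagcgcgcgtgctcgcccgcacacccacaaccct
The Actg1 window held 1 CArG box, 90 to 81 bases before the start, 6 GGGCGG matches, of which 2 overlap each other, and 1 CCAAT. The Tmsb10 window printed held 1 GGGCGG, 176 to 171 bases before the start, and no CArG box, TATAAA or CCAAT. Other annotated starts of Tmsb10 had windows too, and that of the start at 72958232 held 2 GGGCGG matches. Among all 32851 windows of this length, 1.47% held a CArG box, 32.7% GGGCGG, 33.8% CCAAT and 12.4% TATAAA. Of the 5 member genes with a window, Actg1 alone had a match to the CArG box in these bases. The windows of Pfn1 and Tmsb4x did not lie at the outermost start of the gene, and nothing is known here of Actb and Cotl1. A match describes letters in the window and is no measurement of binding.

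Each value is the intensity of a probe set, a linear brightness that the authors had scaled to a common level, and differences are given on the log2 scale, where 1 unit is a 2-fold change. The trimmed means of the arrays lay between 150.083 and 150.09, array medians between 50.15 and 59.25, and the number of arrays limits the precision. Nf1 itself was dim in every library, with an intensity of 7.36 ± 4.92 (SD, n = 15) for wild type and of 6.68 ± 4.31 (SD, n = 15) for heterozygotes, so it could not check the genotype labels. Of the 19 genes listed as markers of hippocampal neurons, 16 were measured, and their summed intensity lay between 10414 and 16476 over all groups. Libraries of 1 group correlated at 0.95 or more across probe sets, except the 2 heterozygous P18 libraries (0.93). One of these, 1b, stood apart in its control signals. Its ratio of 3' to 5' signal, which rises as RNA is degraded or copied incompletely, was 2.20 for the Actb control probe sets and 1.40 for those of Gapdh, against 1.16 and 0.965 in its partner 1a. Library 1a in turn had the largest share of values below an intensity of 1 of any library, 3.948%, beside 1.537% in 1b. Values that use the heterozygous P18 mean are given with and without 1b below.

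The Actb gene was measured by 101578_f_at and 95705_s_at, and by 3 control probe sets to the 3' part, the middle and the 5' part of its transcript. In this array family the suffix _f marks probes that can be shared within a sequence family and _s probes that match several similar sequences, so signal from closely related actin transcripts cannot be told apart from Actb in these probe sets. The _f_at probe set and the controls are annotated to the same GenBank entry. In wild type, the _f_at probe set stood at 644, 748 and 770.5 at P10 and at 792, 672, 594 and 606 at P15. It stood at 468 and 469 at P18, 552 and 514 at P20, 143 and 152 at P28, and 176 and 158 at P32. The wild-type pools of P18 and P20 thus lay below all those of P10 and P15. All 4 wild-type pools of P28 and P32 lay far below the 11 younger ones. The heterozygous pools stood at 633, 742, 549.6 and 641 at P10, and at 793, 534, 567 and 540.0 at P15. It then stood at 259 and 37.2 at P18, 84.2 and 58.3 at P20, 164 and 196 at P28, and 174 at P32. The heterozygous pools were also lower from P18 on than at P10 and P15, by more than wild type at P18 and P20. Their lowest values were those of P18 library 1b (37.2) and of the P20 pools, not those of the latest ages. The other P18 library, 1a, stood at 259, above all heterozygous pools of P28 and P32.

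The _s_at probe set differed from it in wild type up to P20, where its P18 and P20 pools lay above all its P10 pools, and was low at P28 and P32 as well. In wild type it stood at 385, 517 and 537 at P10, 549, 354, 723 and 728 at P15, 699.7 and 628 at P18, 669 and 725 at P20, 112 and 133 at P28, and 95.5 and 150.3 at P32. In heterozygotes the values were 387, 396, 324 and 491 at P10, 817, 492, 426 and 626 at P15, 149 and 27.8 at P18, 71.2 and 67.7 at P20, 173 and 248 at P28, and 184 at P32. In this probe set the wild-type pools stayed high through P20, while the heterozygous pools of P18 and P20 lay below every wild-type pool of those ages.

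Over the whole span both Actb probe sets fell. From P10 to the mean of P28 and P32, averaged over genotypes, the _f_at probe set fell by 2.02 (SE 0.243, limma adjusted p = 2.39e-07), a 4.07-fold fall, with P10 pools at 549.6 to 770.5 and late pools at 143 to 196. The _s_at probe set fell by 1.495 (SE 0.251, limma adjusted p = 2.35e-05), a 2.82-fold fall. Its P10 pools lay at 324 to 537 and its late pools at 95.5 to 248, so neither probe set had overlapping groups. The share of all probe sets without overlap was not counted. Calls were common: 24.7% of all 7453 probe sets tested were called higher and 29.0% lower over the same span. A call is a limma adjusted p under 0.05. With the 3'/5' ratio of the Actb controls as a covariate, chosen after seeing the data, the falls were 1.56 and 1.08, both still called.

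The control probe sets of Actb did not show this fall. The 3' control stood between 4830 and 7937 in all 30 libraries, the middle control between 4375 and 7364, and the 5' control between 3529 and 6353. From P10 to P28-P32 the 3' control differed by -0.02 (95% interval -0.20 to 0.16), the middle control by -0.14 (-0.31 to 0.03) and the 5' control by -0.21 (-0.36 to -0.06). None of these intervals reaches the changes of the _f_at or _s_at probe set. The probe sets named for this gene therefore disagreed in the size of the age change, and which of them follows the Actb transcript was not tested.

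**Figure D1:**
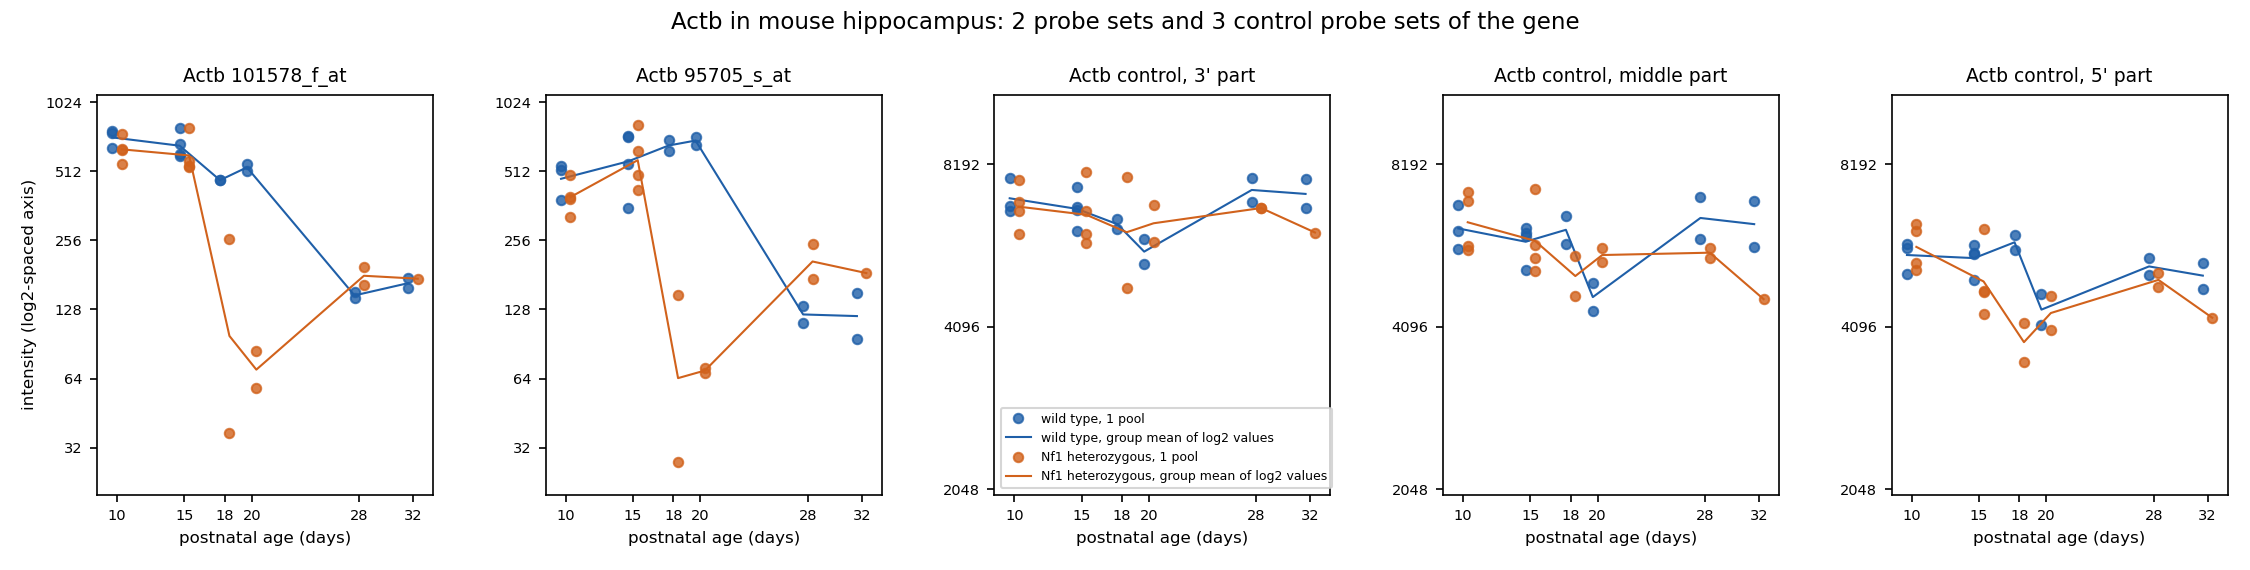
Intensity of the 5 Actb probe sets (log2-spaced axes; range of the first 2 panels differs from that of the 3 control panels) against postnatal age in days; each point is 1 pool of 2 pups and lines join group means of log2 values. The 2 non-control probe sets are higher in wild type through P20 than at P28 and P32, and low in heterozygotes from P18 on, while the 3' control stays between 4830 and 7937.

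Gamma-actin, the partner of beta-actin, held its level. In wild type Actg1 stood at 4788, 4978 and 5269.9 at P10, 4772, 4359, 5553 and 5672 at P15, 5449.7 and 5043 at P18, 4841 and 4490.0 at P20, 5044 and 4727 at P28, and 5123 and 4603 at P32. Heterozygous pools were at 4885, 4483, 4979.8 and 5276 at P10, 5385, 5459, 5103 and 4794 at P15, 4144 and 5079.7 at P18, 4359 and 4173 at P20, 4945 and 4926 at P28, and 4746 at P32. The 30 libraries thus spanned 4144 to 5672, and the pools of P10 overlapped those of P28-P32. Some neighbouring ages did not overlap, among them P18 and P20 in wild type and P20 and P28 in heterozygotes. The change from P10 to P28-P32 was -0.03 (SE 0.063, 95% interval -0.16 to 0.10, limma adjusted p = 0.72).

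The monomer-binding proteins behaved differently from each other. Thymosin beta 10 fell in both age comparisons tested. In wild type Tmsb10 stood at 3455, 4239 and 4058 at P10, 2889, 2190.2, 3031 and 3163 at P15, 2025 and 2316 at P18, 1948 and 1864 at P20, 1384 and 1632 at P28, and 1401 and 1531 at P32. The values in heterozygotes were 4088, 4358, 4692 and 4340.1 at P10, 2964, 2638, 1793 and 2315 at P15, 2283 and 1330.4 at P18, 1680.2 and 1707 at P20, 1248 and 1408 at P28, and 1364 at P32. In both genotypes all P15 pools lay below all P10 pools, and the P28 pools below the P20 pools. The share of all probe sets whose ages were apart in this way was not counted. From P10 to P28-P32 Tmsb10 fell by 1.55 (SE 0.112, limma adjusted p = 6.58e-11), a 2.92-fold fall.

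Thymosin beta 4, the other member of that family here, did not fall over the span. In wild type Tmsb4x stood at 3442, 3609.9 and 3721 at P10, 3305, 3076, 3498 and 3268 at P15, 3251 and 3198 at P18, 3211 and 3338 at P20, 4203 and 4059 at P28, and 3788 and 3647 at P32. In heterozygous pools it stood at 3954, 3618, 4060.1 and 3753 at P10, 3617, 3461, 3725 and 3415 at P15, 4139.8 and 5277 at P18, 4042 and 3953 at P20, 3910.2 and 3948 at P28, and 3831 at P32. The highest of these 30 values was that of the heterozygous P18 library 1b. From P10 to P28-P32 the difference was 0.07 (SE 0.051, 95% interval -0.04 to 0.18, limma adjusted p = 0.255).

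Profilin 1 was much dimmer, near the middle of all probe sets by mean level, and scattered more. In wild type Pfn1 stood at 77.7, 122 and 51.2 at P10, 101, 92.8, 75.4 and 22.9 at P15, 79.7 and 99.4 at P18, 67.2 and 55 at P20, 20.3 and 65.8 at P28, and 31.3 and 28.2 at P32. The heterozygous values were 110.0, 84.9, 71 and 87.6 at P10, 62.8, 78.4, 62.4 and 45 at P15, 25.9 and 42.7 at P18, 103 and 46.5 at P20, 47.7 and 42 at P28, and 36 at P32. The late pools were mostly low, but the wild-type P28 pool at 65.8 lay within the P10 range. Pfn1 fell by 1.19 from P10 to P28-P32 (SE 0.300, limma adjusted p = 0.0019). On the log2(value + 32) scale, which damps dim values, the fall was 0.74, still called.

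The filament-severing Cfl1 fell slightly. In wild type it stood at 2335, 2781 and 2545 at P10, 2443, 2222, 3128 and 3082 at P15, 3168 and 3279 at P18, 2575 and 2721 at P20, 1898 and 2079 at P28, and 1582 and 2069 at P32. The heterozygous pools stood at 2300.3, 2812, 2665 and 2828 at P10, 3123, 3219, 2554 and 2957 at P15, 2722 and 1622 at P18, 2231 and 2636 at P20, 2004 and 2724 at P28, and 2200.2 at P32. Late pools were lower as a group but overlapped those of P10. Cfl1 fell by 0.32 (SE 0.108, limma adjusted p = 0.0142), a call that some alternatives lost, among them that with the Actb control ratio as a covariate (-0.17, limma adjusted p = 0.139).

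The filament-binding Cotl1 was dim. In wild type it stood at 49.5, 119 and 73.8 at P10, 68.4, 88, 74.2 and 112 at P15, 101 and 34.7 at P18, 43.5 and 58.2 at P20, 32 and 41.4 at P28, and 19.4 and 46 at P32. In heterozygotes the values were 84.3, 74.8, 99.3 and 86.7 at P10, 82.8, 64.1, 70.8 and 67.1 at P15, 28.6 and 2.26 at P18, 32.4 and 22.8 at P20, 41.1 and 57 at P28, and 55.1 at P32. The value of 2.26 in library 1b was the lowest of the 30, and the 2 P18 pools of each genotype lay far apart. Cotl1 fell by 0.97 from P10 to P28-P32 (SE 0.368, limma adjusted p = 0.0297), with overlapping groups, and by 0.61 on the log2(value + 32) scale. The call was lost after quantile normalization (-0.82, limma adjusted p = 0.0733), with the Actb control ratio as a covariate (-0.29, limma adjusted p = 0.36), and without wild-type P10 2a (-0.80), wild-type P28 1a (-0.92), wild-type P32 1a (-0.81) or heterozygous P28 1a (-0.91).

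**Figure D2:**
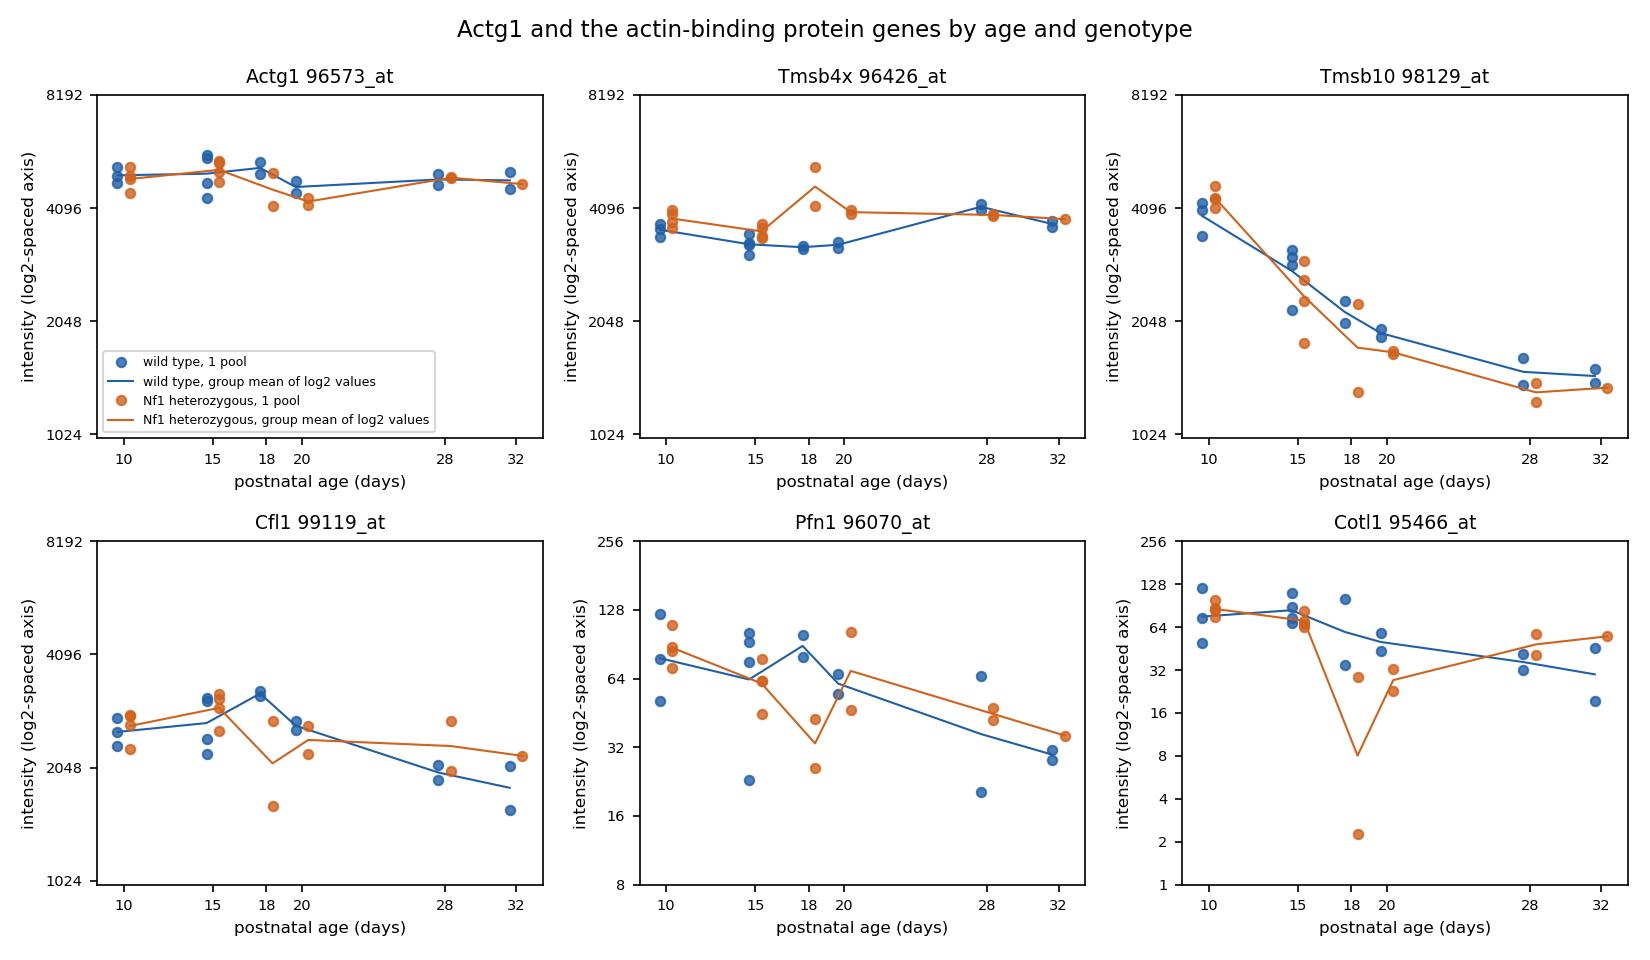
Intensity (log2-spaced axes, whose range differs between the bright and the dim genes) of Actg1 and the 5 actin-binding protein genes against postnatal age in days; each point is 1 pool and lines join group means of log2 values. Tmsb10 declines with age in both genotypes, Actg1 stays between 4144 and 5672, and Cotl1 reaches 2.26 in heterozygous P18 library 1b.

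Set side by side, 6 of the 8 probe sets (both for Actb, Cotl1, Cfl1, Pfn1 and Tmsb10) were called lower from P10 to P28-P32 and none higher. Over all probe sets tested, 29.0% were called lower and 24.7% higher in that span. The calls of Cotl1 and Cfl1 were those that some alternatives lost. The median change over the 8 was -1.08, beside -0.06 over all probe sets tested. This contrast uses no P15 or P18 library, though the model's estimate of the spread takes in all 30. Actb and Cotl1, selected for lower levels at P18 than at P15 in heterozygotes, are among those called. The count and the median over the 8 are therefore not independent of that choice. In the earlier interval, from P10 to P15, Tmsb10 alone of the 8 was called, falling by 0.68 (SE 0.106, limma adjusted p = 4.13e-05), a 1.60-fold fall; 12.5% of all probe sets were called higher and 13.4% lower. P10 to P15 shares the P15 libraries with the step on which the genes were selected. Actb differed in it by -0.10 (95% interval -0.58 to 0.37) in its _f_at probe set and by 0.39 (-0.10 to 0.88) in its _s_at probe set. The difference of Tmsb4x was -0.12 (SE 0.049, limma adjusted p = 0.0707). When the 3'/5' ratio of Gapdh entered as a covariate, Actb _f_at (-0.57, limma adjusted p = 0.0232) and Cotl1 (-0.85, limma adjusted p = 0.00784) were also called lower. With the Actb control ratio in its place, Actb _s_at was called higher (0.52, limma adjusted p = 0.0239).

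**Figure D3:**
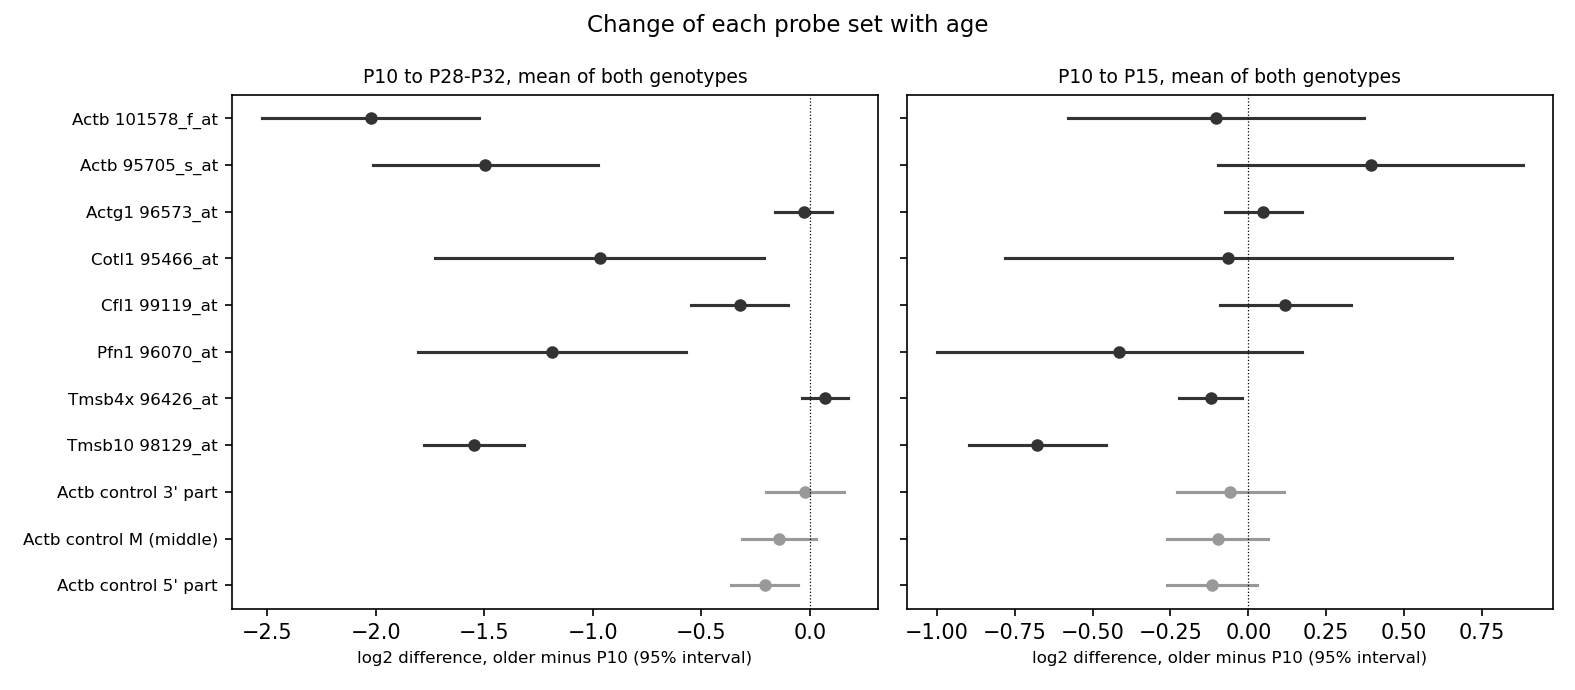
Log2 difference from P10 to P28-P32 (left) and from P10 to P15 (right), averaged over genotypes, with 95% intervals, for the 8 probe sets (dark) and the 3 Actb controls (grey); the x axes of the panels differ in range. Both Actb probe sets and Tmsb10 lie well below 0 on the left, the Actb controls between -0.21 and -0.02, and only Tmsb10 stands clearly below 0 on the right.

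Markers of several cell types moved from P10 to P28-P32, a span in which 24.7% of all probe sets were called higher and 29.0% lower. The counts of markers that rose or fell are counts of such calls. In bulk tissue, fewer cells of a type and less RNA per cell cannot be told apart. All 10 immature-neuron markers were measured and tested and all 10 fell; their summed intensity was 18193 to 21000 at P10 and 8942 to 11061 at P28-P32. Of 12 endothelial markers 9 were measured, 7 of them fell, and the sum went from 1530 to 1867 at P10 to 714 to 1008. Of 12 markers of mural cells and fibroblasts 11 were measured, and 6 of the 10 tested fell, with sums of 1801 to 2295 and 1453 to 1736. All 7 tested myelinating-oligodendrocyte markers, of 8 measured, rose, and the sum went from 672 to 1070 at P10 to 7535 to 9277. Of 14 microglial markers 13 were measured and 4 of the 9 tested rose while 1 fell, with sums of 1687 to 2058 and 2181 to 2720. Of the 10 astrocyte markers 9 were measured and 6 of 8 tested rose while 1 fell, with sums of 5107 to 5616 and 7843 to 9212. The part of these shifts in the falls of Actb, Pfn1, Cfl1, Cotl1 and Tmsb10 was not tested.

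From P15 to P18 the Actb probe sets and Cotl1 were far lower in heterozygotes. Actb _f_at stood at -2.61 in heterozygotes and -0.50 in wild type, Actb _s_at at -3.15 and 0.23, and Cotl1 at -3.14 and -0.51. On the log2(value + 32) scale Cotl1 stood at -1.18 in heterozygotes, against -2.16 and -2.54 for the Actb probe sets, so its size depends on the scale. The changes of the other genes were smaller: Pfn1 at -0.87 and 0.49, Cfl1 at -0.49 and 0.26, Tmsb10 at -0.45 and -0.37, Actg1 at -0.17 and 0.05, and Tmsb4x at 0.40 and -0.03. Thus 3 of the 8 probe sets were lower by over 2-fold in heterozygotes, where 2.09% of all probe sets were, and 0 of 8 in wild type, where 0.295% were. The median over the 8 was -0.68 in heterozygotes beside -0.04 over all probe sets, and 0.01 beside 0.00 in wild type. These values chose the genes, and nothing is read from them.

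Library 1b set much of the size. Without it, leaving 1 heterozygous P18 pool, Actb _f_at stood at -1.21, Actb _s_at at -1.94 and Cotl1 at -1.31. Without 1a they stood at -4.01, -4.36 and -4.97. All 3 were below -1 either way, but Actb and Cotl1 were selected on these same pools, so nothing is read from this. The smaller values also moved: without 1b, Pfn1 stood at -1.23, Cfl1 at -0.12, Tmsb10 at -0.06, Actg1 at -0.32 and Tmsb4x at 0.22. Without 1b, 4 of the 8 probe sets (Pfn1 as well) were lower by over 2-fold, beside 1.49% of all, and the median was -0.77 beside 0.00. The count and the median rest on the selecting pools too and are descriptions. The 3 Actb controls, in the same step in heterozygotes, stood at -0.11 (3'), -0.22 (middle) and -0.37 (5'), and without 1b at -0.45, -0.34 and -0.25. The 3'/5' ratio of the Actb controls was 1.33 at P15 and 1.68 at P18 in heterozygotes (means), and 1.23 and 1.08 in wild type; it ranged from 1.07 to 2.20 over all libraries. In 1a, with a ratio of 1.16, Actb _f_at was 259 against 468 and 469 in wild type at P18. Library 1a also had the lowest Actg1 value (4144) and the lowest Actb 3' control (4830) of the 30 libraries. Marker sums in 1a and 1b were 2650 and 2193 for microglia (2910 to 2957 in wild type at P18) and 7086 and 9162 for astrocytes (6220 to 6658). For immature neurons they were 11497 and 11316 (10495 to 11569), for endothelium 1196 and 965 (1085 to 1117), for mural cells and fibroblasts 1521 and 1790 (1391 to 1766), and for blood cells 2960.0 and 1768 (3651 to 4511). The part of RNA quality and of cell types in the P18 values was not tested.

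**Figure D4:**
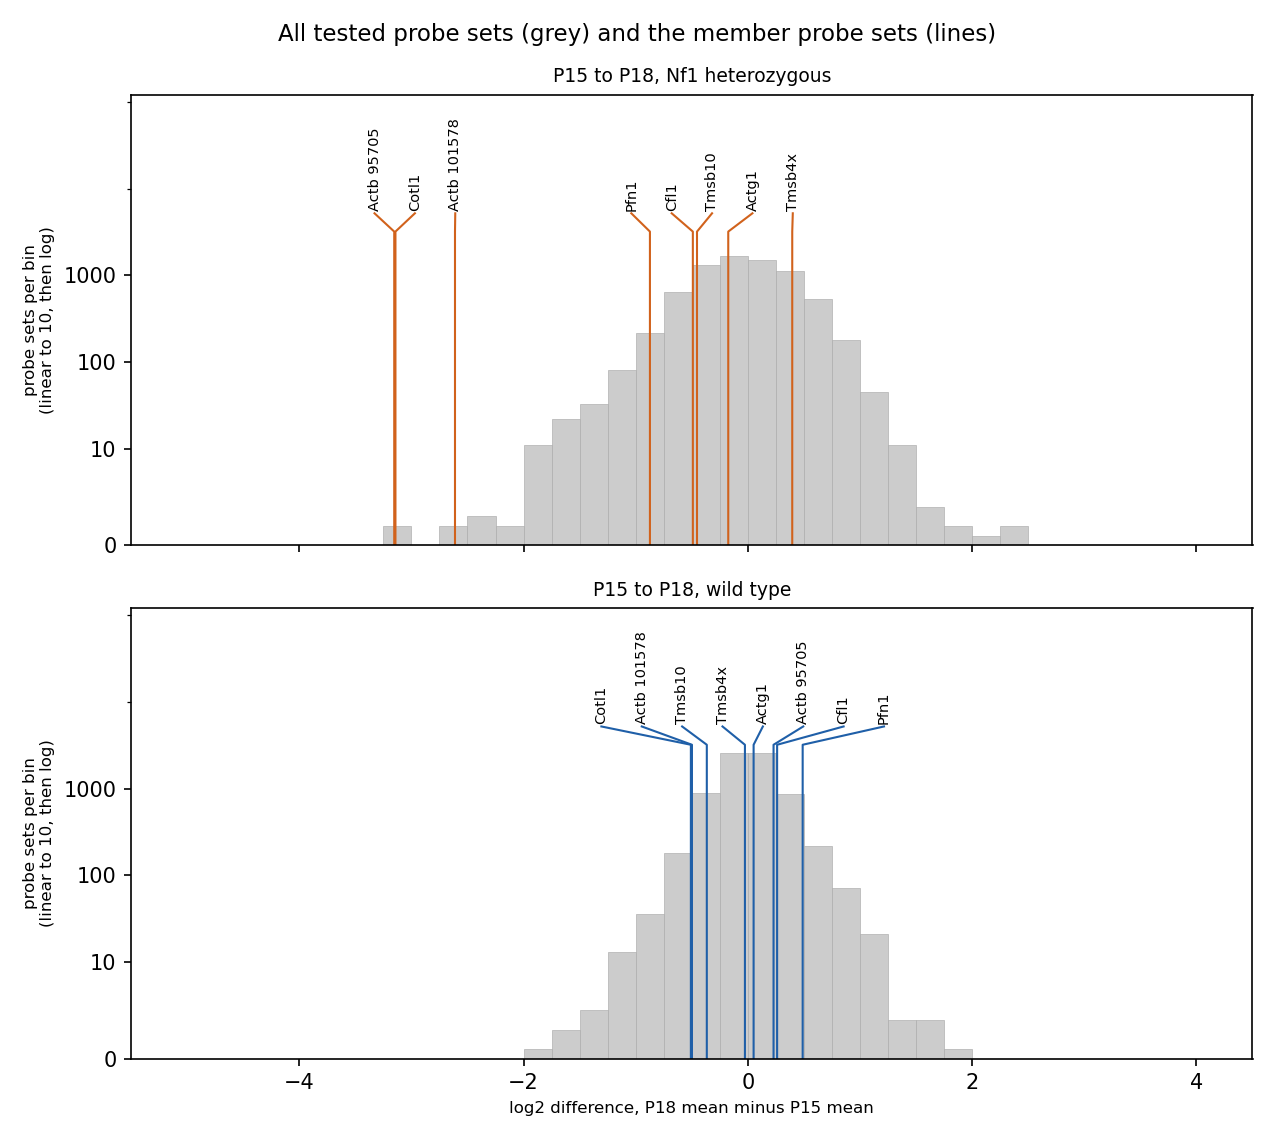
Log2 difference from P15 to P18 in heterozygotes (top) and wild type (bottom): grey bars count the 7453 tested probe sets per bin (axis linear to 10, then logarithmic) and lines mark the 8 probe sets. Both Actb probe sets and Cotl1 lie at the far left end of the heterozygous distribution, at -2.61 to -3.15, and within 0.51 of 0 in wild type.

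At P20 the genotypes again stood apart for Actb. The heterozygous pools stood at -2.93 (_f_at) and -3.33 (_s_at) relative to wild type on the log2 scale; over all probe sets 1.44% were lower by over 2-fold. Cotl1 stood at -0.89 and Tmsb4x at 0.29 in that contrast, and the other genes between -0.17 and 0.18. The Actb controls stood at 0.17 (3'), 0.26 (middle) and -0.02 (5'). By P28 and P32 both genotypes were near 1 level for the _f_at probe set, from opposite sides. From P20 to the late ages the difference was -1.76 for wild type and 1.34 for heterozygotes, and the _s_at probe set at -2.53 and 1.49. These contrasts are given as descriptions, since they continue the step on which the genes were selected. At P20 the number in the sample title, which the labels leave unexplained, was 2 in both wild-type libraries and 1 in both heterozygous ones, so it and genotype cannot be told apart at that age. The Actb 3'/5' ratio at P20 was 1.28 in wild type and 1.47 in heterozygotes (means). The astrocyte sum was 5759 to 6205 in wild type and 7383 to 8033 in heterozygotes, and the blood sum 2318 to 2464 and 2855 to 4683. The sum for myelinating oligodendrocytes was 7256 to 7920 in wild type and 9144 to 10089 in heterozygotes, and that for immature neurons 11602 to 11626 and 9323 to 9962. Other sums overlapped between wild type and heterozygotes: microglia (2419 to 2661 and 2617 to 2679) and endothelium (954 to 1062 and 936 to 1092). So did those of mural cells and fibroblasts (1553 to 1602 and 1551 to 1747) and of hippocampal neurons (15298 to 15856 and 15280 to 16017). The Gapdh 3'/5' ratio averaged 0.803 in wild type and 1.06 in heterozygotes. The part of the ratios and of these cell types in the P20 values was not tested.

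**Figure D5:**
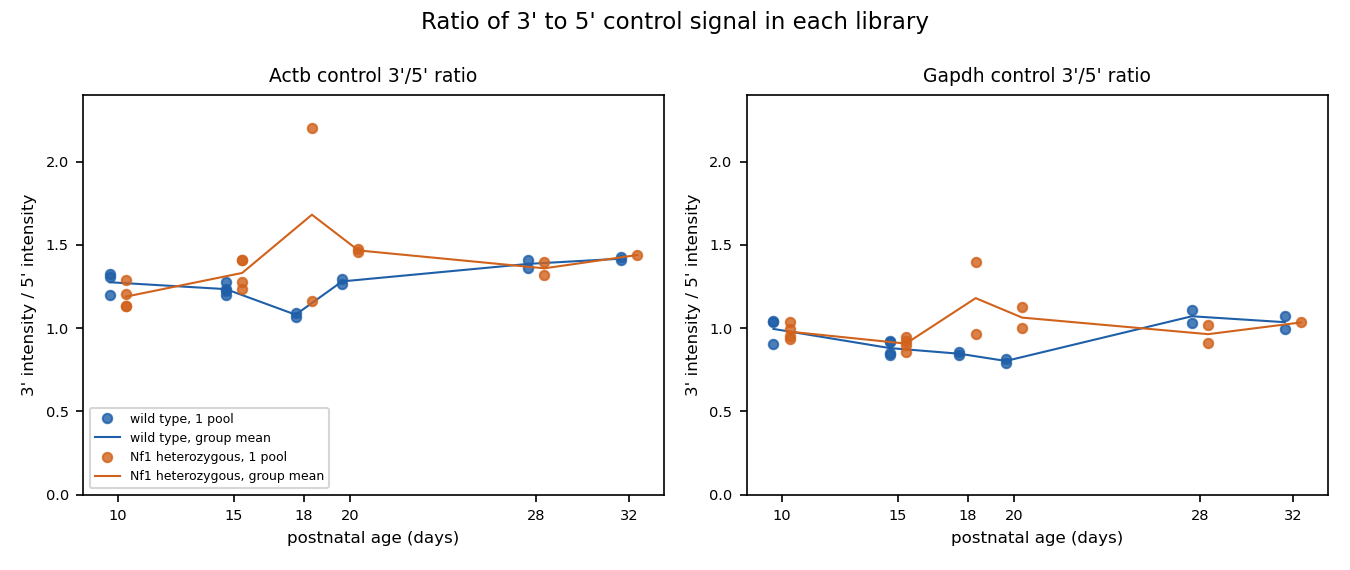
Ratio of 3' to 5' intensity of the Actb (left) and Gapdh (right) control probe sets against postnatal age in days; each point is 1 pool and lines join group means. Heterozygous P18 library 1b is the highest point in both panels, at 2.20 and 1.40.

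Whether the course from P10 to P28-P32 differed between genotypes was tested with an interaction term. None of the 8 probe sets was called, and 0% of all 7453 were; at an unadjusted p under 0.05 in limma there were 508, none of them of these genes. The largest difference among the 8 was that of Actb _s_at, 0.96 (95% interval -0.08 to 1.99, limma adjusted p = 0.746), which reflects a fall of 1.97 in wild type and 1.02 in heterozygotes. That of Actb _f_at was 0.35 (-0.66 to 1.35) and that of Cotl1 0.47 (-1.05 to 1.99), both wide. The intervals were narrow for Actg1 (-0.24 to 0.28) and Tmsb4x (-0.32 to 0.10).

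The genotype effect over the 5 ages other than P18 was tested in the 26 remaining libraries. None of the 8 probe sets was called, and 0.0134% of all were, which is 1 probe set, that of Chpf, a chondroitin synthase subunit (0.33, SE 0.057, limma adjusted p = 0.0304). At an unadjusted p under 0.05 in limma there were 679 of the 7453 probe sets, 2 of them among the 8. These were Actb _f_at, at -0.50 (SE 0.219, limma adjusted p = 0.506), and Tmsb4x, at 0.10 (SE 0.035, limma adjusted p = 0.364). The value for Actb _f_at includes the P20 libraries. Without them it was -0.05, an alternative added after seeing the data. Actb _s_at was at -0.40 (SE 0.281, limma adjusted p = 0.703), and without the P20 libraries at 0.14, so its sign changed. For Actg1 the difference was -0.02 (95% interval -0.10 to 0.06), for Tmsb10 -0.09 (-0.24 to 0.05) and for Cfl1 0.10 (-0.03 to 0.24).

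Other genes of the actin system were taken as lists, 5 of which are given here, and read by 1 probe set per gene, the brightest. Their counts stand beside a background of 24.7% of all probe sets called higher and 29.0% lower from P10 to P28-P32, and nothing particular to a list is read from them. From P10 to P28-P32, of the 12 tested genes of the Arp2/3 complex, which starts filament branches, and its activators, 6 rose and 1 fell, with a median of 0.23. The largest rise was that of Cyfip2, a subunit of the WAVE regulatory complex (0.61, SE 0.147, limma adjusted p = 0.0013), and the fall was that of Arpc4, an Arp2/3 subunit (-0.45, SE 0.118, limma adjusted p = 0.0025). Of 18 monomer binders, severing, capping and turnover proteins, 5 rose and 5 fell (median -0.10). Gelsolin (Gsn), which severs and caps filaments, rose by 3.48 (SE 0.213, limma adjusted p = 4.68e-12), an 11.2-fold rise, and its relative scinderin (Scin) fell by 0.84. The rise of Gsn went with that of the oligodendrocyte markers given above, and their part in it was not tested.

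Of 20 bundlers, cross-linkers and membrane linkers, 5 rose and 8 fell (median 0.05). Alpha-actinin 1 (Actn1), a cross-linker, rose by 0.73 in its brightest probe set, while its other probe sets were at 0.91 (called) and 0.28 (not called, limma adjusted p = 0.341). Marcksl1, a membrane-bound protein that binds filaments, fell by 1.07. Of 11 tropomyosins and non-muscle myosins, 2 rose and 5 fell (median -0.13). Myosin VI (Myo6), which walks toward filament minus ends, rose by 0.94 in its brightest probe set and by 0.45 in another, and was at 0.00 in the remaining one (limma adjusted p = 0.977), and myosin X (Myo10), found in filopodia, fell by 0.82. Of 6 other actins and actin-related proteins none rose and 2 fell (median -0.12), the cardiac actin Actc1 by 0.87. The Actc1 probe set is also of the _f kind, so shared signal cannot be told apart.

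From P10 to P15, where 12.5% of all probe sets were called higher and 13.4% lower, the counts were smaller. Of the Arp2/3 list 1 rose, the WAVE subunit Brk1 (0.15), and 0 fell, and of the severing and capping list 3 rose and 6 fell, with Gsn at 2.76 and the cofilin paralog Cfl2 at -0.64. Of the bundlers 3 rose and 2 fell, with Actn1 at 0.48 and the growth cone protein Gap43, also an immature-neuron marker, at -0.71. Of the tropomyosins and myosins 1 rose, Myo6 (0.34, with its other probe sets at 0.30, called, and 0.13, not called), and 3 fell, with tropomyosin 2 (Tpm2) at -0.52. Of the other actins 1 fell, Actc1 (-0.42). Some of these calls rest on 1 library: Brk1 (0.13) was not called without wild-type P10 1b, Actc1 (-0.35) without wild-type P10 2a, and Myo6 (0.28) without wild-type P10 2b. Tpm2 was not called without any 1 of wild-type P10 1b (-0.51), P10 2b (-0.51) or P15 1a (-0.44), or heterozygous P10 1a (-0.48), P10 1b (-0.48) or P15 2d (-0.40). With the Gapdh ratio as a covariate neither Brk1 (0.11) nor Tpm2 (-0.43) was called. No gene of these 5 lists was called in either test of genotype.

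In the step from P15 to P18 in heterozygotes, 0 genes of these 5 lists were lower by over 2-fold, with library 1b or without it. Over all probe sets 2.09% were with 1b and 1.49% without it, so few would be among the lists, and nothing particular to them is read from this. With both libraries, the lowest and highest of each list were Actc1 at -0.74 and Actl6a, a chromatin-associated actin-related protein, at 0.25; Arpc4 at -0.47 and Cyfip2 at 0.56; and the twinfilin gene Twf2 at -0.77 and the capping protein Eps8 at 0.53. Talin 1 (Tln1) stood at -0.70 and ezrin (Ezr) at 0.55 among the linkers, and Tpm3 at -0.44 and Myo10 at 0.67 among the tropomyosins and myosins. Without 1b the lowest of these lists were Actc1 (-0.66), Abi1, a WAVE complex subunit (-0.77), Scin (-0.38), Tln1 (-0.82) and the myosin light chain Myl9 (-0.59), so 3 of the 5 lowest genes change with that library.

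Profiles were compared over the 12 group means, each centred on its own mean, by the root mean square distance in log2 units to Actb _f_at. The other Actb probe set lay at 0.38, where a flat profile would lie at 1.15. Of the member genes, Cotl1 lay at 0.70, Tmsb10 at 0.82, Pfn1 at 0.91, Cfl1 at 1.01, Actg1 at 1.10 and Tmsb4x at 1.27, so the last was farther than a flat profile. The distances take in the P15 and P18 means of heterozygotes, on which Actb and Cotl1 were selected. Without those, Cotl1 lay at 0.68, Tmsb10 at 0.75, Pfn1 at 0.91, Cfl1 at 0.99, Actg1 at 1.07 and Tmsb4x at 1.21, beside 1.12 for a flat profile. The 5 nearest other genes were Vav2, a guanine nucleotide exchange factor (0.52), Serpinh1, a collagen chaperone (0.56), Pnoc, the nociceptin precursor (0.59), Syt7, a synaptotagmin (0.62), and Rhoj (0.62). Single libraries of Vav2 ranged from 4.85 to 44.7, of Pnoc from 3.96 to 89.0, of Syt7 from 5.73 to 39.8 and of Rhoj from 5.97 to 46.1, so these were dim, and Serpinh1 ranged from 40.7 to 374. All 5 were lower at P18 than at P15 in heterozygotes, Syt7 by the most (-1.92), which is part of the likeness by which they were picked. Without library 1b, 3 of these 5 were still among the nearest 5 (Vav2, Serpinh1 and Rhoj), and without the P15 and P18 means of heterozygotes 1 was (Vav2).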

How the data were processed

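The authors deposited 1 linear intensity per probe set and array, made with software that the labels and file headers do not name. No normalization was added. A floor of 1 was set, which 1.68% of values lay below, before taking log2. Dim values therefore depend on that floor and on the background correction used upstream.

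Control probe sets (66) and the 40% of the others with the lowest mean log2 (4969, below an intensity of 30.85) were left out, and 7453 were tested; all 8 probe sets described passed. Genes were named from the platform annotation, with current symbols from RefSeq (GRCm38.p6).

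Linear models were fitted with limma 3.58.1 (R 4.3.3), with 1 mean per genotype and age over all 30 samples, or age plus genotype in the 26 samples without P18, an intensity trend, and Benjamini-Hochberg adjustment over all probe sets tested. P28-P32 averages the groups of both ages. The computations were tested on simulated data. Alternatives covered the floor, normalization, filter, variance model, samples, title codes and 3'/5' ratios.

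The genes and lists were chosen with earlier results of these data known. Named are all probe sets of the 7 genes, the controls, Nf1, the list genes with the largest called rise and fall per comparison and the extremes of the P15 to P18 step in heterozygotes, and the 5 nearest profiles. Chpf lies outside this rule and was named after its value was seen. One list of regulators of actin is not reported here.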

Additional observations from a re-analysis of the deposited data

Results flagged for a closer look

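The _f_at probe set of Actb in the heterozygous P15 library 1c stood at 793.11, far above the other 3 pools of its group, which lay between 533.93 and 566.56. Its gap to the nearest pool was 0.874 of the range of the group. In all, 33 combinations of group and probe set were examined (3 groups of 4 pools, 11 probe sets including the Actb controls), and chance alone marks about 1 in 20 of them.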

How the results depend on the processing

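The count of probe sets called from P10 to P28-P32 was 4004, and 2902 to 4463 under the other settings (3674 to 3916 with 1 library left out). Actb (both probe sets) and Tmsb10 were called lower in every setting run, and Pfn1 in each one that kept it in the test. Leaving out the lowest 60% of probe sets removed Pfn1 and Cotl1. Cotl1 was not called after quantile normalization (-0.82, limma adjusted p = 0.0733). The title codes do not pair the samples: deviations of libraries with the same code correlated at -0.18 to 0.13. With the code as a replicate block, Cotl1 (-0.77) and Cfl1 (-0.22) were not called from P10 to P28-P32, nor with the title number as a block (-0.81 and -0.25), and 618 probe sets were called from P10 to P15, against 1932 (1623 to 1892 with 1 library left out). Of the list genes named for P10 to P15, Actc1, Brk1, Actn1, Myo6 and Tpm2 were not called with that block. Tmsb10 was called from P10 to P15 in every setting run. Tmsb4x was called lower there with array weights, with the compared groups only, without heterozygous P18, without P18 and P20, and with the Actb ratio as a covariate.

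For the difference between genotypes (0 called) the counts were 1 without the intensity trend, 4 with array weights, 6 with the compared groups only, 3 without heterozygous P18, 1 with the title code block, 2 with the Gapdh ratio, 4 without P18 and P20, 7 with the Actb ratio, and 0 to 2 with 1 library left out. For genotype without P18 (1 called) they were 0 without the trend, with array weights, with P18 added, with the title number block or without P20, 2 with either ratio, and 0 to 4 with 1 library left out. None of the 8 probe sets was among the calls of either test in any setting run. The cause of these shifts was not tested. The wild-type median from P15 to P18 over the 8 (0.01) lay between -0.039 and 0.172 with 1 library left out. Settings with the Actb ratio or without P20 libraries, and the summaries and distances without library 1b or the selecting means, were chosen after seeing the data. Dim signal limits Cotl1 and Pfn1, whose changes shrink on the log2(value + 32) scale.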
